A study of Mus musculus with 12 samples.

Results

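The genes described are 9 secreted cytokines or cytokine subunits of neutrophils: *Il12a*, *Il12b*, *Il23a*, *Il27* and *Ebi3* of the IL-12 family, *Il6*, *Osm* and *Lif* of the IL-6 family, and *Il10*. They were taken by gene symbol from the annotation of the array, and all 9 were found, each on 1 transcript cluster (the set of probes that reads the transcripts of a gene), among 28944 transcript clusters tested, of which 21789 name exactly 1 gene. Neutrophils came from the bone marrow of wild-type C57BL/6 mice and of *Card9*-/- mice on the same background, which carry a germline mutation of *Card9* in every cell. They were kept for 4 h at 37 °C on immobilized immune complexes (IC), made of human serum albumin and an antibody against it, or on human serum albumin alone (control). Adherent and nonadherent cells were lysed together, and 150 ng of RNA were labelled for an Affymetrix mouse gene array. The 4 groups (both genotypes on control and on IC) were run together in 3 experiments at separate times, giving 3 arrays per group and 12 arrays in all. Whether 1 mouse or several supplied the cells of an array could not be learned, so the p-values refer to these experiments and not to a known number of mice. As the experiment was a block of the fit, they rest on how far the group differences varied between experiments. Differences in level between the experiments do not enter them. For each gene the spread was 1 estimate shared by all 4 groups. A p-value or interval for wild-type cells thus also carries the scatter of *Card9*-/- arrays, and the reverse. In bulk RNA, fewer cells that express a gene and less RNA per cell cannot be told apart.

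Cytokines of the IL-12 family are pairs of an α and a β chain. IL-12p40, encoded by *Il12b*, joins IL-12p35 (*Il12a*) to make IL-12 or IL-23p19 (*Il23a*) to make IL-23, whereas EBI3 (*Ebi3*) joins IL-27p28 (*Il27*) to make IL-27. The IL-6 family (IL-6, oncostatin M and leukaemia inhibitory factor among others) signals through receptors that share gp130, encoded by *Il6st*, and IL-10 is a cytokine that restrains inflammatory gene expression. Both families and IL-10 act through JAK kinases and STAT transcription factors. CARD9 is an adaptor of myeloid cells that passes signals from Syk-coupled receptors to NF-κB, and the arrays asked which immune complex-induced transcripts depend on it.

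The transcript of the mutated gene followed the genotype labels. *Card9* (transcript cluster 10480956) had log2 signals of 8.42, 8.43 and 8.75 in wild-type control cells and of 8.08, 8.21 and 8.50 in wild-type IC cells, against 6.39, 5.94 and 5.70 in *Card9*-/- control cells and 6.42, 6.01 and 5.56 in *Card9*-/- IC cells (here and below in the order of experiments 1, 2 and 3). The genotypes did not overlap, and *Card9* was lower in mutant cells on both surfaces (limma, adjusted p = 0.00229 on control and 0.00491 on IC), a call that was lost without experiment 2 (adjusted p = 0.304 on control and 0.202 on IC) although the log2 difference was −2.54 and −2.31 without it against −2.52 and −2.27 with it. All 10 neutrophil markers (such as *Ly6g*, *S100a8* and *Csf3r*) lay above background on every array, with a summed signal of 15.48 to 15.71 on the log2 scale. Markers of other cells were also present. The summed log2 signal was 9.78 to 12.06 for monocytes and macrophages (4 to 6 of 7 markers above background, never *Mrc1*), 7.40 to 8.51 for dendritic cells (3 to 5 of 6, never *Clec9a*), 7.960 to 12.002 for B cells (3 to 5 of 5), 7.70 to 8.28 for T and NK cells (2 to 3 of 5) and 10.94 to 13.12 for eosinophils, basophils and mast cells (4 to 6 of 6). The part of these cells in the cytokine signals was not tested.

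The promoters of 3 of the genes are shown because they differ in the motifs of transcription factors that act downstream of CARD9 or are known to act on cytokine genes. Each is the RefSeq window of 250 bases before to 50 bases after the gene start on the plus strand of GRCm38.p6, at chr17:55952373-55952672 for *Ebi3*, chr5:30012864-30013163 for *Il6* and chr11:44399813-44400112 for *Il12b*, with the motif matches in capitals.
Ebi3: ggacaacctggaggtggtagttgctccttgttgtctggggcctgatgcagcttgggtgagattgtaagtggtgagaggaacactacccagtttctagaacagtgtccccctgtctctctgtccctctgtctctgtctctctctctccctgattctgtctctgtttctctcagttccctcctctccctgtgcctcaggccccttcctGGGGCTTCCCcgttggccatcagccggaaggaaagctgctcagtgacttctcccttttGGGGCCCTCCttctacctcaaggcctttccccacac
Il6: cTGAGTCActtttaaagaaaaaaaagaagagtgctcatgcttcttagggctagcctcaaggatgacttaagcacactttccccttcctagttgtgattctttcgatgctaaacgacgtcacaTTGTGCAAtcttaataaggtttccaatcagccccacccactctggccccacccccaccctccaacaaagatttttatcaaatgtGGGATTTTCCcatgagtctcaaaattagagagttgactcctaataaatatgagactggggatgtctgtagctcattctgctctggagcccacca
Il12b: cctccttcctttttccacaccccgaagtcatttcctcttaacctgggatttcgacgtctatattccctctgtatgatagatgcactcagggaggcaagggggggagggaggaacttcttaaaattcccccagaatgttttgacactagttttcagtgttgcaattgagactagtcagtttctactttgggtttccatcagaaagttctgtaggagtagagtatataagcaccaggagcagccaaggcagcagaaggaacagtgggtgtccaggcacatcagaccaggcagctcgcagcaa
The *Ebi3* window held 2 matches to the κB consensus bound by NF-κB, GGGGCTTCCC starting 44 bases before the gene start and GGGGCCCTCC at base 15 after it. The *Il6* window held a κB match (GGGATTTTCC, starting 44 bases before the start), an AP-1 site at its far end (TGAGTCA) and a C/EBP site between them (TTGTGCAA), and the *Il12b* window held none of the 4 motifs searched. Of the 9 genes, 5 had a window in the table (*Il12a* had 2). *Lif* (chromosome 11) held a κB and an AP-1 match, and neither *Il12a* window held any. Both strands were searched, and the shares of all 32851 windows with a match were 8.46% for the κB consensus, 7.81% for AP-1 (TGANTCA), 8.30% for STAT (TTCNNNGAA) and 40.7% for C/EBP (TTNNGNAA). The gene start that these windows use is that of RefSeq, and a match says only that the letters are there.

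The 9 genes fell into 3 levels of signal against background (the plot of log2 signals by group). Background was taken from 1134 transcript clusters of olfactory receptor genes, most of which are read only in sensory neurons of the nose, and its ceiling was their 95th percentile on each array, at 5.37 to 5.45 in experiment 1, 5.52 to 5.64 in experiment 2 and 4.72 to 4.87 in experiment 3 on the log2 scale. A gene was called expressed where it lay above the ceiling on all 3 arrays of at least 1 group, which held for *Il23a*, *Il12a*, *Il27*, *Ebi3* and *Osm*. The same held for 55.8% of all tested clusters and for 3.97% of the olfactory receptor clusters themselves. That last share follows from the ceiling, which was set on these same clusters. Of 35 clusters of tissue-restricted genes, on which the ceiling was not set, 28.6% met the same rule. *Il12b*, *Il6*, *Il10* and *Lif* were intermediate, with 6, 6, 3 and 1 of 12 arrays above the ceiling, and none of the 9 was below it on every array. With 35 clusters of tissue-restricted genes such as *Alb* and *Ins2* as a stricter reference, 3 genes were expressed (*Il27*, *Ebi3* and *Osm*), *Il23a* and *Il12a* were intermediate, and *Il12b* and *Lif* were background on every array. The mean signal of *Ebi3* was above that of 96.4% of all clusters. Signals of different genes come from different probes and are not ranked here by transcript number.

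**Figure D1:**
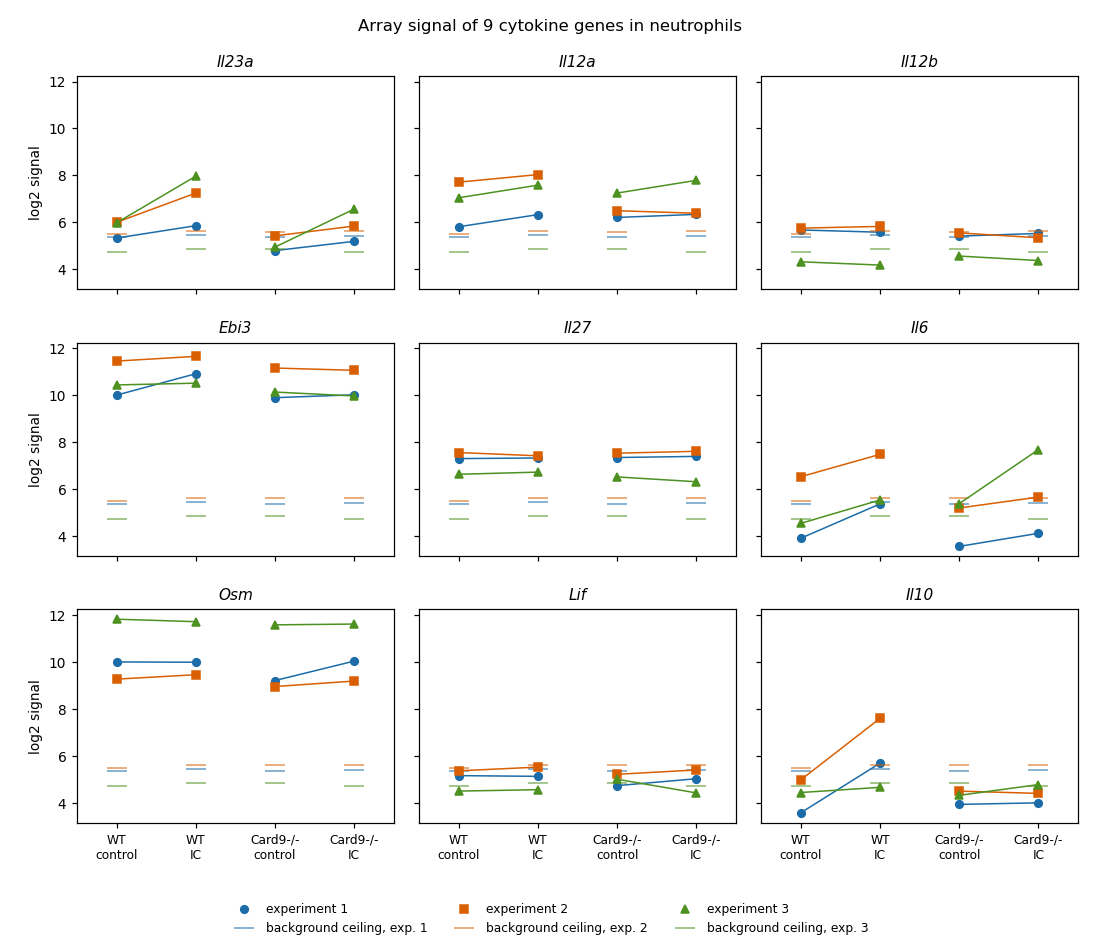
Log2 signal of the 9 genes on each of the 12 arrays, by group on the x axis, with a marker for each experiment, lines joining the surfaces of an experiment within a genotype, and short horizontal bars at the background ceiling of that array. *Ebi3* and *Osm* lie far above the ceiling on every array and *Il27* lies 1.57 to 2.05 above it, whereas *Il12b* and *Lif* stay near it.

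*Il23a* (transcript cluster 10373358), which encodes the chain particular to IL-23, had the largest part of its variation between the groups (61.4% of its sum of squares over the 12 arrays, against 26.0% between experiments). Its log2 signal was 5.33, 6.00 and 5.98 in wild-type control cells and 5.86, 7.25 and 7.97 in wild-type IC cells. In *Card9*-/- cells it was 4.80, 5.43 and 4.95 on control and 5.19, 5.84 and 6.57 on IC. The IC signal was the higher of the pair in all 3 experiments of both genotypes, and the mutant signal was the lower of the pair in all 3 experiments on both surfaces, although the groups overlapped when experiments were mixed. The log2 difference between the surfaces was 1.25 in wild-type cells (standard error 0.28, a 2.38-fold difference, limma adjusted p = 0.325) and 0.81 in *Card9*-/- cells (0.39, 0.42 and 1.62 in the 3 experiments, standard error 0.28, adjusted p = 1.00, and 0.41 without experiment 3). The difference between these responses was −0.44 (95% confidence interval −1.31 to 0.43), and it ranged from −0.60 to −0.25 when an experiment was left out. Between the genotypes the log2 difference was −0.72 on control (adjusted p = 0.954) and −1.16 on IC (standard error 0.28, adjusted p = 0.176). The last of these passed the threshold when only the 6 IC arrays were fitted (adjusted p = 0.0402). In the order of the 4 group means, wild-type IC lay above *Card9*-/- IC by 1.16 ± 0.43 (SD, n = 3 experiments), *Card9*-/- IC and wild-type control did not differ beyond their spread (0.09 ± 0.42), and wild-type control lay above *Card9*-/- control by 0.72 ± 0.28.

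*Ebi3* (transcript cluster 10445977), the β chain of IL-27, lay farthest above the background ceiling among the IL-12 family probe sets (by 4.51 to 6.05). It had log2 signals of 10.01, 11.46 and 10.44 in wild-type control cells and of 10.92, 11.66 and 10.52 in wild-type IC cells. The corresponding values in *Card9*-/- cells were 9.90, 11.16 and 10.14 on control and 10.03, 11.07 and 9.97 on IC. Within each experiment the wild-type IC array was the highest of the 4, while experiment 2 lay above the others in every group, and experiments accounted for 74.6% of the variation. The response of wild-type cells was 0.91 in experiment 1 but 0.20 and 0.08 in experiments 2 and 3 (mean log2 difference 0.40, standard error 0.14, limma adjusted p = 0.454, and 0.14 without experiment 1). Fitted on the wild-type arrays alone, it had a larger standard error of 0.18 (limma adjusted p = 0.719). The response of *Card9*-/- cells was 0.12, −0.10 and −0.17 (mean −0.05, 95% confidence interval −0.36 to 0.27), and the responses differed by −0.44 (adjusted p = 0.999). On IC the mutant signal was lower by 0.90, 0.59 and 0.55 in the 3 experiments. Its mean log2 difference of −0.68 (standard error 0.14, adjusted p = 0.117) had the smallest p of the 9 genes in any comparison (0.000582 before adjustment), and on control the difference was −0.24 (adjusted p = 0.954).

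*Il12a* (transcript cluster 10492540), the α chain of IL-12, lay above the ceiling on every array. Its log2 signals were 5.81, 7.71 and 7.05 in wild-type control cells and 6.33, 8.04 and 7.59 in wild-type IC cells. Those of *Card9*-/- cells were 6.21, 6.50 and 7.25 on control and 6.34, 6.39 and 7.79 on IC. All 4 groups overlapped. The wild-type difference between the surfaces was similar in the 3 experiments (0.52, 0.32 and 0.54, mean log2 difference 0.46, 95% confidence interval −0.30 to 1.21, limma adjusted p = 0.671), and in *Card9*-/- cells it was 0.13, −0.11 and 0.54. The interval for wild-type cells uses the spread shared by all 4 groups. Fitted on the wild-type arrays alone, it was 0.18 to 0.73 (limma adjusted p = 0.704). The genotypes differed by −1.22 on control and −1.65 on IC in experiment 2 and by 0.01 to 0.40 in the other experiments, and no call resulted (limma adjusted p = 0.975 and 0.746).

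The remaining chains of the family showed no such pattern. *Il12b* (transcript cluster 10375331), the β chain common to IL-12 and IL-23, had log2 signals of 5.68, 5.76 and 4.32 in wild-type control, 5.58, 5.83 and 4.18 in wild-type IC, 5.42, 5.55 and 4.57 in *Card9*-/- control and 5.53, 5.34 and 4.37 in *Card9*-/- IC cells. No group stood apart, the signal was within 0.69 of the ceiling on every array, and experiment 3 was the lowest in each group, as its ceiling was. The log2 difference between the surfaces was −0.05 in wild-type cells (95% confidence interval −0.36 to 0.25) and −0.09 in *Card9*-/- cells (−0.40 to 0.21), and that between the genotypes on IC was −0.11 (−0.42 to 0.19). *Il27* (transcript cluster 10567987), which encodes the p28 chain, was expressed and flat, with 7.31, 7.56 and 6.64 in wild-type control, 7.33, 7.43 and 6.73 in wild-type IC, 7.35, 7.54 and 6.53 in *Card9*-/- control and 7.40, 7.62 and 6.32 in *Card9*-/- IC cells. Groups accounted for 0.265% and experiments for 94.9% of its variation. Its 95% confidence intervals limited the log2 difference between the surfaces to −0.26 to 0.25 in wild-type and −0.28 to 0.23 in *Card9*-/- cells. Both chains of IL-27 and the α chain of IL-12 were thus above the ceiling on every array and the β chain common to IL-12 and IL-23 was near it, while *Il23a* met the rule for expression through wild-type IC cells alone, with 2, 1 and 2 of 3 arrays above the ceiling in wild-type control, *Card9*-/- control and *Card9*-/- IC cells.

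In the IL-6 family, *Il6* (transcript cluster 10520452), which encodes a cytokine of the acute-phase response, had the widest range of signals over the 12 arrays. Its log2 signals were 3.92, 6.54 and 4.55 in wild-type control, 5.38, 7.49 and 5.54 in wild-type IC, 3.57, 5.20 and 5.39 in *Card9*-/- control and 4.13, 5.67 and 7.69 in *Card9*-/- IC cells. The highest array was that of *Card9*-/- IC cells in experiment 3, and in experiment 1 all 4 arrays lay below the ceiling. The IC signal was the higher of the pair in all 3 experiments of both genotypes, by a mean log2 difference of 1.14 in wild-type (standard error 0.61, limma adjusted p = 0.570) and 1.11 in *Card9*-/- cells (0.56, 0.46 and 2.30 in the 3 experiments, standard error 0.61, adjusted p = 1.00, and 0.51 without experiment 3). Fitted on the wild-type arrays alone, the wild-type difference had a standard error of 0.14 (95% confidence interval 0.80 to 1.47, limma adjusted p = 0.309). The difference between the responses was −0.90 and −0.49 in experiments 1 and 2 and 1.31 in experiment 3 (mean −0.03, 95% confidence interval −1.92 to 1.86). Likewise the genotypes on IC differed by −1.25, −1.82 and 2.15, so that the direction of the mean (−0.31, adjusted p = 0.932) turned without experiment 1 (0.16) or 2 (0.45), and without experiment 3 it was −1.54.

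*Osm* (transcript cluster 10373912), which encodes oncostatin M, a product of activated myeloid cells, was strongly expressed on every array. Signals were 10.01, 9.28 and 11.84 in wild-type control, 10.001, 9.470 and 11.730 in wild-type IC, 9.22, 8.97 and 11.59 in *Card9*-/- control and 10.05, 9.20 and 11.63 in *Card9*-/- IC cells on the log2 scale. Experiment 3 lay above the others in every group and experiment 2 below them, and experiments accounted for 95.3% of the variation. The log2 difference between the surfaces was 0.02 in wild-type cells (95% confidence interval −0.29 to 0.33) and 0.37 in *Card9*-/- cells (0.83, 0.23 and 0.03 in the 3 experiments, limma adjusted p = 1.00). *Card9*-/- control cells had the lowest signal of each experiment, by 0.79, 0.32 and 0.24 against wild-type control cells (mean log2 difference −0.45, adjusted p = 0.954), while on IC the genotypes differed by −0.11 (95% confidence interval −0.42 to 0.20).

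*Lif* (transcript cluster 10373918), which encodes leukaemia inhibitory factor, was above the ceiling on 1 array, that of *Card9*-/- control cells in experiment 3. It had log2 signals of 5.17, 5.38 and 4.51 in wild-type control, 5.14, 5.54 and 4.57 in wild-type IC, 4.75, 5.23 and 5.02 in *Card9*-/- control and 5.04, 5.41 and 4.44 in *Card9*-/- IC cells. All groups overlapped. The log2 difference between the surfaces was 0.06 in wild-type (95% confidence interval −0.30 to 0.43) and −0.03 in *Card9*-/- cells (−0.40 to 0.33).

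*Il10* (transcript cluster 10349603) was above the ceiling on 3 of 12 arrays and clearly so on 1. Its log2 signals were 3.59, 4.99 and 4.45 in wild-type control and 5.70, 7.61 and 4.67 in wild-type IC cells, and in *Card9*-/- cells 3.95, 4.51 and 4.33 on control and 4.01, 4.42 and 4.79 on IC. The wild-type IC arrays of experiments 1 and 2 were 0.25 and 2.00 above the ceiling, that of experiment 3 was 0.19 below it, and in *Card9*-/- cells the signal passed the ceiling on IC in experiment 3 (by 0.04). The wild-type difference between the surfaces was 2.11, 2.62 and 0.22 (mean log2 difference 1.65, standard error 0.45, limma adjusted p = 0.410), set against wild-type control arrays that were all below the ceiling. In *Card9*-/- cells it was 0.07, −0.10 and 0.46 (mean 0.14, 95% confidence interval −0.85 to 1.14). The responses differed by −2.05, −2.71 and 0.24 (mean −1.51, adjusted p = 0.999), and the genotypes on IC by −1.69, −3.20 and 0.12 (mean −1.59, adjusted p = 0.249). Without experiment 3 the last difference was −2.44 and passed the threshold (adjusted p = 0.0402), and without experiment 2 it was −0.79. The summed signal of monocyte and macrophage markers on the same arrays was 10.23, 12.06 and 10.07 in wild-type control, 11.295, 12.001 and 9.783 in wild-type IC, 10.01, 11.74 and 9.98 in *Card9*-/- control and 10.04, 11.17 and 9.98 in *Card9*-/- IC cells. Between the wild-type arrays this sum was higher on IC in experiment 1 and lower in experiments 2 and 3. A sum of signals follows its strongest markers. The median log2 difference of the 7 markers between the surfaces in wild-type cells was 0.13, 0.089 and 0.0057 in the 3 experiments. The part of monocytes and macrophages in the *Il10* signal was not tested.

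Counted over the 9 genes (the plot of differences between the surfaces), no gene passed the threshold for IC against control in wild-type cells, nor did any of the 28944 clusters (0%), whereas 3 genes (*Il23a*, *Ebi3* and *Il10*) had an unadjusted p under 0.05, all with higher signal on IC, as 9.59% of all clusters did in either direction. *Il23a*, *Il12a*, *Ebi3*, *Il6* and *Il10* were higher on IC in 3 of 3 experiments, against 18.8% of all clusters, and the median log2 difference of the 9 genes was 0.40 against 0.04 over all clusters. In *Card9*-/- cells, with 0% of all clusters called, 2 genes (*Il23a* and *Osm*) had an unadjusted p under 0.05 (3.01% of all clusters), and *Il23a*, *Il6* and *Osm* were higher on IC in 3 of 3 experiments (11.5%). The median log2 difference there was 0.14 against −0.01. For the difference between the responses 0% of all clusters were called, *Il10* alone of the 9 genes had an unadjusted p under 0.05 (3.68%), and *Il23a* and *Ebi3* were lower in 3 of 3 experiments (16.6%). *Osm* was higher in 3 of 3, but the share of all clusters higher in 3 of 3 was not counted, so this has no baseline. The median of the 9 genes was −0.10 against −0.03. This difference shares its arrays with the comparisons of the surfaces.

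**Figure D2:**
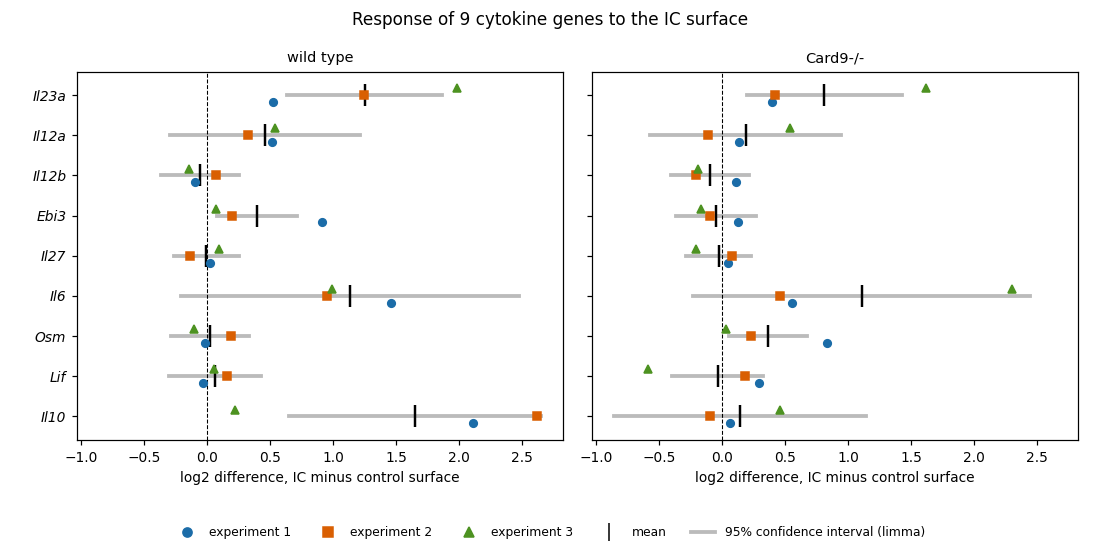
IC minus control signal on the log2 scale (x axis) for the 9 genes (y axis) in wild-type cells (left) and *Card9*-/- cells (right), with a marker for each experiment, a black line for the mean and a grey bar for the 95% confidence interval of the limma fit. *Il10* lies at 2.11 and 2.62 in experiments 1 and 2 of wild-type cells and between −0.10 and 0.46 in *Card9*-/- cells.

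Between the genotypes (the plot of genotype differences), none of the 9 genes passed the threshold on control, where 0.038% of all clusters did, *Il23a* and *Osm* had an unadjusted p under 0.05 (4.64% of all clusters), and *Il23a*, *Ebi3* and *Osm* were lower in *Card9*-/- cells in 3 of 3 experiments (12.8%). On IC none of the 9 passed (0.162% of all clusters), *Il23a*, *Ebi3* and *Il10* had an unadjusted p under 0.05 (9.13%), and *Il23a*, *Ebi3* and *Lif* were lower in 3 of 3 experiments (15.4%). The median log2 difference of the 9 genes was −0.21 on control, against 0.03 over all clusters, and −0.31 on IC, against −0.01. None of 5 B cell markers was called between the genotypes, but all 5 had a mean difference above 0 on both surfaces (median log2 difference 0.58 on control and 0.68 on IC). Of these 5, 1 on control and 3 on IC had an unadjusted p under 0.05. Their summed log2 signal on IC was 9.20, 8.03 and 11.53 in wild-type and 10.697, 8.206 and 12.002 in *Card9*-/- cells. Of 6 markers of eosinophils, basophils and mast cells, likewise none was called, 5 had a mean above 0 on control (median 0.42) and 6 on IC (median 0.47, or −0.12, 0.52 and 1.28 in the 3 experiments). On each surface 1 of the 6 had an unadjusted p under 0.05. The summed signal of the 6 on IC was 11.64, 10.94 and 12.01 in wild-type and 11.44, 11.68 and 12.85 in *Card9*-/- cells. The part of these cells in the genotype differences was not tested.

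**Figure D3:**
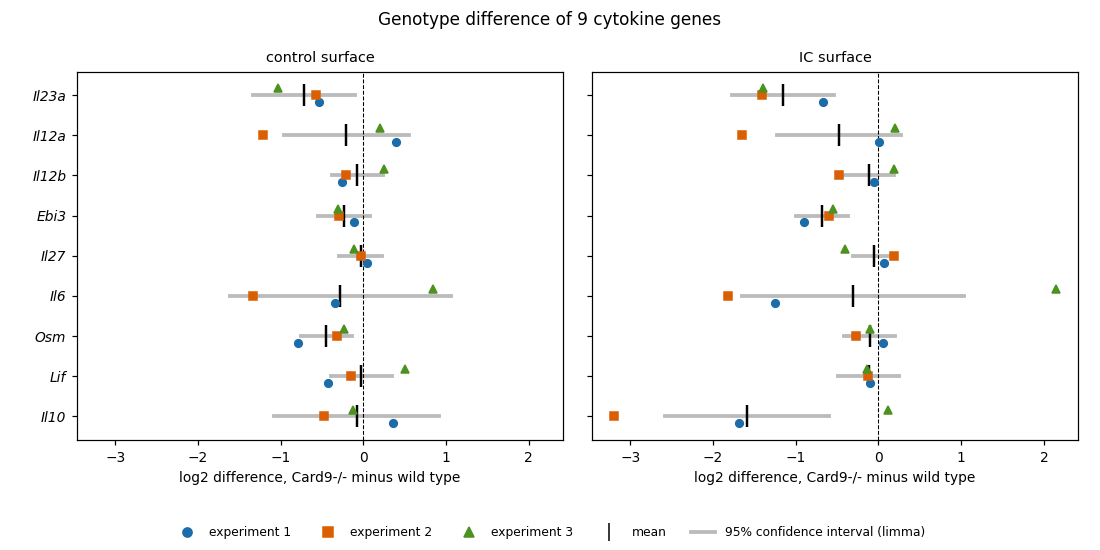
*Card9*-/- minus wild-type signal on the log2 scale (x axis) for the 9 genes (y axis) on the control surface (left) and on IC (right), with a marker for each experiment, a black line for the mean and a grey bar for the 95% confidence interval of the limma fit. On IC *Ebi3* and *Il23a* lie below 0 in every experiment, whereas *Il6* ranges from −1.82 to 2.15.

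The receptors of these cytokines were measured by 10 transcript clusters, of which 7 were expressed, and *Il23r*, *Osmr* and *Lifr* (which encode chains of the receptors for IL-23, oncostatin M and leukaemia inhibitory factor) were below the ceiling on every array. Here and for the lists below, expressed refers to the olfactory receptor ceiling. *Il12rb1* lay below the tissue-restricted ceiling on every array, and *Il27ra* passed it only in *Card9*-/- IC cells of experiment 1 (6.22 against 6.17). In wild-type control cells *Il12rb2* (5.56, 5.71 and 5.13) lay below the median of all clusters (5.72, 5.86 and 5.27). None of the 10 passed the threshold in any of the 5 comparisons. *Il6ra*, the ligand-binding chain of the IL-6 receptor, had log2 signals of 9.92, 10.76 and 8.74 in wild-type control and 9.48, 10.25 and 8.05 in wild-type IC cells. It was thus lower on IC in each experiment (mean log2 difference −0.55, standard error 0.12, limma adjusted p = 0.292), and in *Card9*-/- cells it was lower by 0.27, 0.40 and 0.19 (mean −0.29, adjusted p = 1.00). *Il10ra*, the ligand-binding chain of the IL-10 receptor, had signals of 6.84, 9.74 and 8.49 in wild-type control, 9.35, 9.69 and 8.81 in wild-type IC, 6.78, 9.04 and 7.83 in *Card9*-/- control and 7.51, 8.43 and 8.26 in *Card9*-/- IC cells. The wild-type IC array was the highest or, in experiment 2, close to the highest of its experiment, and the genotypes differed by −1.84, −1.26 and −0.55 on IC (mean log2 difference −1.22, adjusted p = 0.331). *Il10rb*, the chain that the IL-10 receptor shares with other receptors, differed by −0.44 on IC (adjusted p = 0.377) and by −0.34 on control (adjusted p = 0.954), below 0 in 3 of 3 experiments on each. The median log2 difference of the list was −0.02 for IC against control in wild-type cells and 0.01 between the genotypes on IC.

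The 7 genes of JAK, STAT and SOCS proteins analysed here were all expressed, and none passed the threshold in any comparison. *Socs3*, which encodes a feedback inhibitor of the gp130 receptors, was lower in *Card9*-/- cells in 3 of 3 experiments on both surfaces, with mean log2 differences of −0.56 on control (standard error 0.12, limma adjusted p = 0.380) and −0.48 on IC (adjusted p = 0.182). *Tyk2*, a JAK kinase of the IL-12, IL-23 and IL-10 receptors, differed by −1.88, −1.51 and −0.26 on IC (mean −1.22, adjusted p = 0.184). Medians of the list were 0.03 for IC against control in wild-type cells and −0.15 between the genotypes on IC. Of other cytokines of the IL-6 and IL-10 families, 7 were analysed here. *Clcf1* and *Il31* were expressed, *Il11* and *Il19* were intermediate, *Ctf1*, *Il20* and *Il24* were background, and none passed the threshold. In wild-type cells of experiment 2 *Il31* was close to the ceiling (5.61 against 5.52 on control and 5.66 against 5.61 on IC). It was below the median of all clusters on these arrays (5.86 on each). The smallest p in wild-type cells was that of *Il19* (mean log2 difference on IC 0.21, adjusted p = 0.580), and the median of the list was 0.02 there and −0.04 between the genotypes on IC.

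Regulators known to act on the transcription or the mRNA stability of these cytokines were represented by 14 genes analysed here, all expressed. On IC the signal of *Batf*, an AP-1 family transcription factor, was 7.96, 9.31 and 8.44 in wild-type and 6.32, 6.86 and 7.30 in *Card9*-/- cells. *Batf* was the only gene of the 4 lists to pass the threshold in any comparison. It was lower in *Card9*-/- cells (mean log2 difference −1.74, standard error 0.25, limma adjusted p = 0.0285), in a comparison that called 0.162% of all clusters. The call was lost without experiment 1, 2 or 3 (adjusted p = 0.0741, 0.178 and 0.0513), with the arrays centred on their medians (0.0642) and without the experiment block (1.00), while the difference stayed between −2.05 and −1.39. On control its signal was 6.50, 8.56 and 7.54 in wild-type and 6.53, 7.36 and 7.06 in *Card9*-/- cells (adjusted p = 0.954), and its responses to IC were 1.04 and −0.16 (difference −1.19, adjusted p = 0.999). *Nfkbiz*, which encodes IκBζ, a cofactor of NF-κB at *Il6* and other promoters, differed between the genotypes on IC by −1.13, −1.07 and −0.90 (mean −1.03, adjusted p = 0.0842). *Zc3h12a*, which encodes an RNase that degrades *Il6* and *Il12b* mRNA, differed by −1.43, −1.33 and −0.93 (mean −1.23, adjusted p = 0.119). *Cebpb*, which encodes a transcription factor of myeloid cytokine genes, had mean log2 differences between the surfaces of 1.01 in wild-type (adjusted p = 0.416) and 0.67 in *Card9*-/- cells (adjusted p = 1.00).

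Over the 14 regulators (the plot of receptor and regulator genes), 10 were lower in *Card9*-/- IC than in wild-type IC cells in 3 of 3 experiments (15.4% of all clusters were). The median log2 difference was −0.51 (−0.52, −0.65 and −0.38 in the 3 experiments), against −0.01 over all clusters. For IC against control their median was 0.34 in wild-type cells, against 0.04 over all clusters, and −0.06 in *Card9*-/- cells, against −0.01. Of the 14, 6 were higher on IC in 3 of 3 experiments in wild-type cells (18.8% of all clusters) and 2 in *Card9*-/- cells (11.5%). The genotype comparison on IC and the wild-type comparison of the surfaces share the wild-type IC arrays. The list was chosen with earlier results of these data known, so its counts and medians only describe it. All 14 were expressed, against 55.8% of all clusters, so the shares over all clusters come from an unlike set.

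**Figure D4:**
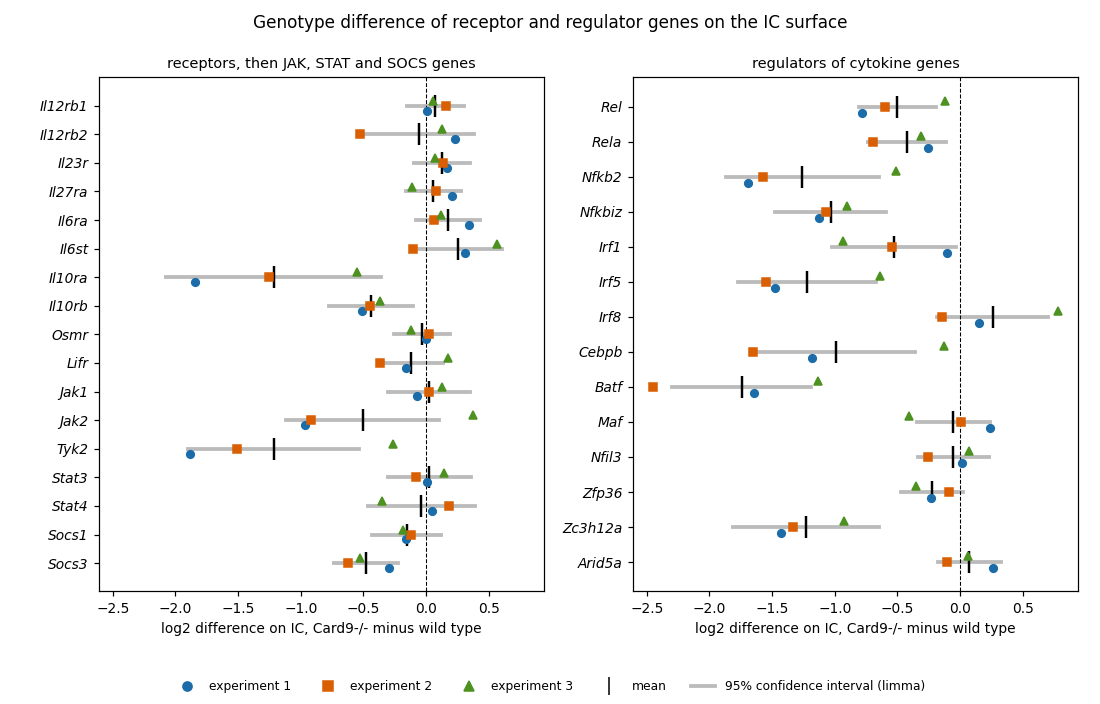
*Card9*-/- minus wild-type signal on IC on the log2 scale (x axis) for receptor and JAK, STAT and SOCS genes (left) and for regulators of cytokine genes (right), with a marker for each experiment, a black line for the mean and a grey bar for the 95% confidence interval of the limma fit. *Batf* lies below −1 in every experiment, and *Il10ra* and *Tyk2* are the lowest of the left panel.

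The transcripts whose pattern was most like that of each expressed gene were ranked by Pearson's r over the 12 arrays, after centring within each experiment, among 10556 genes of at least median signal. These are descriptions over arrays that share experiments and treatments. *Ebi3* was closest to *Bcl3* (r = 0.983), which encodes a nuclear IκB protein, then to *Mefv* (0.975), which encodes pyrin, and *Tnfaip2* (0.972). For *Il12a* they were *Cd69* (0.963), an early activation marker of leukocytes, *Ddt* (0.928) and *Rrad* (0.926). *Il23a* was closest to *Dph3* (0.948), *Ifi35* (0.939) and *Capg* (0.937). For the flat gene *Il27* (*Npw*, *Gad1* and *Zfp169*, 0.895 to 0.927) and for *Osm* (*Nusap1*, *Jun* and *Mast2*, 0.881 to 0.932) the differences compared were small. Each r is among the highest of 10556 over 12 arrays. Values up to 0.927 were thus reached by a gene without a group pattern, close to those of *Il23a*, *Ddt* and *Rrad*.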

How the data were processed

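The deposited values are log2 signals of 12 arrays in 35556 rows. Their summarization, background correction and normalization by the authors were not given in the sources used here, and they bear most on differences of low signals. Array medians were 5.27 to 5.93, and correlations across clusters were 0.985 to 0.997 within and 0.944 to 0.986 between experiments. Arrays have no depth of reads; precision is limited by how many there are. Arrays were grouped by their labels. After removal of 6612 control probe sets, 28944 clusters were fitted as deposited in limma 3.58.1 under R 4.3.3 (lmFit, then eBayes), with 4 groups and the experiment as a fixed block (6 residual and 5.40 prior degrees of freedom). The labels give the number as a separate experiment, and deviations from group means correlated at 0.67 to 0.87 for the same number and at −0.73 to 0.36 for different numbers. Tests were two-sided with Benjamini-Hochberg adjustment over all clusters, at a threshold of 0.05, and the procedure was tested on simulated data. Where a gene had several clusters, that of the highest mean was used. Symbols came from the annotation table of the platform (1621 clusters name several genes and 5534 none) and sequences from RefSeq. The 9 genes, the lists of receptors, JAK, STAT and SOCS genes, other cytokines, regulators and cell type markers, and the tests were chosen with earlier results of these data known. Named genes are the 9, *Card9*, of each list those past the threshold or the genes with the smallest p in a comparison, and the 3 genes most like each expressed gene. *Nfkbiz* was added after its values were seen. The closing section gives the effect of other blocks, normalizations, signal filters, fits and background references. Python 3.11.15 with numpy 2.4.6, pandas 2.3.3 and matplotlib 3.10.9 was used. Raw array files and quantitative PCR were not used here.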

Additional observations from a re-analysis of the deposited data

How the results depend on the processing

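The replicate number, which names the experiment, was the block of the fit. Without it, 0 of the 9 genes passed the threshold in every comparison, as with it. *Batf* and, on IC, *Card9* lost their calls without the block, and both lost them in the factorial test without moderation. Of 340 values of the 9 genes under the other alternatives (experiment as no block or a random block, quantile normalization, median centring, clusters above the median signal, limma-trend, only the arrays compared, a factorial test without moderation), 330 kept their direction and their side of the threshold. With only the arrays compared, 1 gene passed on IC between the genotypes (*Il23a*). Leaving out an experiment gave 0 to 1 there (*Il10* without experiment 3) and 0 elsewhere. Values near 0 turned their sign. With quantile normalization these were 0.011 for *Il27* on IC in wild-type cells, 0.012 for *Lif* on IC in *Card9*-/- cells, and 0.035, 0.071 and 0.0095 for the difference between the responses of *Il12b*, *Il6* and *Lif*. With median centring they were −0.032 for *Osm* on IC in wild-type cells and 0.035, 0.056 and 0.048 for the difference between the responses of *Il12b*, *Il27* and *Il6*. When an experiment was left out, 23 of 135 values turned, and the ranges of these log2 differences follow. For IC against control in wild-type cells they were −0.055 to 0.060 for *Il27* and −0.059 to 0.087 for *Osm*. In *Card9*-/- cells they were −0.13 to 0.013 for *Ebi3*, −0.016 to 0.26 for *Il10*, −0.079 to 0.063 for *Il27* and −0.20 to 0.24 for *Lif*. For the difference between the responses they were −0.17 to 0.078 for *Il12b*, −0.14 to 0.12 for *Il27*, −0.70 to 0.41 for *Il6* and −0.31 to 0.18 for *Lif*. Between the genotypes they were, on control, −0.30 to 0.12 for *Il10*, −0.51 to 0.30 for *Il12a*, −0.23 to 0.020 for *Il12b*, −0.069 to 0.010 for *Il27*, −0.84 to 0.25 for *Il6* and −0.29 to 0.18 for *Lif*, and on IC −0.82 to 0.11 for *Il12a*, −0.27 to 0.070 for *Il12b*, −0.17 to 0.13 for *Il27* and −1.54 to 0.45 for *Il6*. The other 111 kept their direction and call. By the reference for background, 5 genes were expressed against olfactory receptors, 3 against tissue-restricted genes and 5 against the median of all clusters, 4, 4 and 2 were intermediate, and 0, 2 and 2 were background. Over all clusters, 47 were called between the genotypes on IC, with 13 higher in *Card9*-/- cells and 34 lower. These were 0 without the block and without moderation, 20 and 85 with a random block, 5 and 39 with quantile normalization, 3 and 19 with median centring, 15 and 37 among clusters above the median signal, 4 and 30 with limma-trend, 72 and 101 with only the arrays compared, 52 and 24 without experiment 1, 1 and 2 without experiment 2, and 12 and 104 without experiment 3. The causes were not tested. Another cluster of the same gene could not be tried, since each gene has 1. Near the background ceiling a log2 difference understates or hides a change of transcript, so the intervals for *Il12b*, *Lif*, *Il6* and *Il10* limit the signal only. Those for *Il23a* are limited in the same way, since it lay below the ceiling on some arrays. Relative to the ceiling it was at −0.04 in wild-type control, −0.59 in *Card9*-/- control and −0.22 in *Card9*-/- IC cells of experiment 1. In experiment 2 it was at −0.18 in *Card9*-/- control cells.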
